A study of Mus musculus with 6 samples.

Results

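The genes described here are Lin28a, Lin28b, Trim71, Hmga2, Igf2bp1, Igf2bp2 and Igf2bp3, which were chosen by name as the LIN28 and let-7 axis with the IGF2BP family. Of these 7 genes, 6 had probes on the array, with 14 probes among 41174 and 6 genes among 27677 gene names. Lin28a was measured by 1 probe, which the array calls Lin28, Igf2bp2 by 1 probe, and Lin28b, Hmga2, Igf2bp1 and Igf2bp3 by 3 probes each. No probe was matched to Trim71 by symbol or accession, and it is not analysed here. All 14 probes passed the filter on dim probes, 1 of them, Lin28b A_52_P532355, through the knockdown arrays alone. None of their spots was saturated or marked as an outlier by the scanner software.

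The study measured total RNA from in vitro primordial germ cells on Agilent 1-colour mouse whole-genome arrays, 1 array per sample and 6 arrays in all. The cells were male, of a mixed C57BL/6 and 129SV background, and came from embryonic stem cells with an Oct4-GFP transgene, differentiated on gelatin after feeder cells were removed. The knockdown groups carried short hairpin 2 or short hairpin 1 against Dazl, whose protein binds mRNAs in germ cells, and the control groups carried a control vector. The hairpins are numbered here as in the sample titles, while the names of the scanner files number them differently. Every vector had a tdTomato marker, and cells positive for both GFP and tdTomato were sorted after 12 or 9 days. Each day had 1 array of hairpin 2, 1 of hairpin 1 and 1 of the control, so the knockdown comparison sets 4 arrays against 2. Nothing in the labels ties the samples to separate cultures, so the p-values cover the spread among these 6 samples alone, which may be technical.

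LIN28A and LIN28B are RNA-binding proteins that bind precursors of the let-7 microRNAs in their terminal loop and hold back their maturation. Mature let-7 in turn represses a group of mRNAs that includes Lin28a, Lin28b, Trim71, Hmga2 and the Igf2bp genes, so the axis is a loop of mutual repression, with LIN28 high in embryonic cells and let-7 high in most differentiated ones. Lin28a is also known for a role in the specification of primordial germ cells in mouse cultures. The arrays measured mRNA, and no level of mature let-7 was analysed here.

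The mature sequences of the let-7 family in mouse, from RefSeq with GRCm38.p6, are shown because their seed is what target mRNAs such as Hmga2 pair with. Capitals mark bases 2 to 8, the seed.
mmu-let-7a-5p: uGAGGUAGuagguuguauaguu
mmu-let-7b-5p: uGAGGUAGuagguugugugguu
mmu-let-7c-5p: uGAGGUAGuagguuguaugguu
mmu-let-7d-5p: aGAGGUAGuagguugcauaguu
mmu-let-7e-5p: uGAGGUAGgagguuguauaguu
mmu-let-7f-5p: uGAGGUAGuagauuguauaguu
mmu-let-7g-5p: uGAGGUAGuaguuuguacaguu
mmu-let-7i-5p: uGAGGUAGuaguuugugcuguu
mmu-let-7k: uGAGGUAGgagguugugug
mmu-miR-98-5p: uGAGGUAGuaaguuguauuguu
mmu-let-7j: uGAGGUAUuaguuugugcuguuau
Of these 11 names, 10 share the seed and let-7j differs from it in its last base. Across the table, 11 of 1679 mature microRNAs (0.655%) carried the shared seed.

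LIN28 proteins are known to recognise a GGAG stretch in the loop of the precursor. All 12 let-7 hairpins in the RefSeq table were searched for GGAG on their own strand. It lay between the arms in 9 of them and was absent there in let-7c-2, let-7b and miR-98. Anywhere in the hairpin, 447 of 1005 mouse hairpins (44.5%) held these 4 letters, so a match is only a description. One hairpin with the stretch, in capitals, and one without are shown for comparison.
Mirlet7g, chr9:106178840-106178927, plus strand: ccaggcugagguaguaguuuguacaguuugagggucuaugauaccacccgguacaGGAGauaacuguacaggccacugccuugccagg
Mirlet7b, chr15:85707319-85707403, plus strand: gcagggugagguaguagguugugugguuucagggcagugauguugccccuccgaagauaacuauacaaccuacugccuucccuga

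The targeted gene was checked first. Dazl probe A_51_P246060 had a signal of 36.3 for hairpin 2 and 48.3 for hairpin 1 at day 12, against 1330 in the control, and 24.8 and 23.2 at day 9, against 499 in the control. It fell by 4.72 on the log2 scale (SE 0.17, limma adjusted p = 0.0046), and the other Dazl probe, A_52_P271166, differed by -4.30 (SE 0.29, adjusted p = 0.0547). The 75th percentile of the arrays' signal lay between 629 and 745, and between 70.3% and 73.3% of probes were well above background. Levels below are log2 signals relative to each array's own 75th percentile, tested with limma over 30190 probes, and a probe passed at a Benjamini-Hochberg adjusted p under 0.05. Of the germ cell markers, 13 of 14 were kept and all 13 were well above background on all 6 arrays. The 3 arrays of a day were on 1 slide, and each vector had the same place on each slide. Day therefore cannot be told apart from slide, nor vector from its place.

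The first comparison asks how the knockdown of Dazl left the axis. None of the 14 probes passed the threshold for knockdown against control, and their adjusted p lay between 0.278 and 0.970. Over all probes 0.00662% were called, which is 2 probes. At an unadjusted p under 0.05 there were 5 of the 14, namely 3 of Hmga2 and 1 of Igf2bp1, lower, and 1 of Lin28b, higher. That level was passed by 9.88% of all probes, 5.53% lower and 4.35% higher. Hmga2 had the most negative differences, of about the same size on its 3 probes, and Lin28b the most positive ones, while those of Lin28a, Igf2bp2 and Igf2bp3 were smaller. Without A_52_P532355, the median difference of the other 13 probes was -0.12, against -0.02 over all probes tested.

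**Figure D1:**
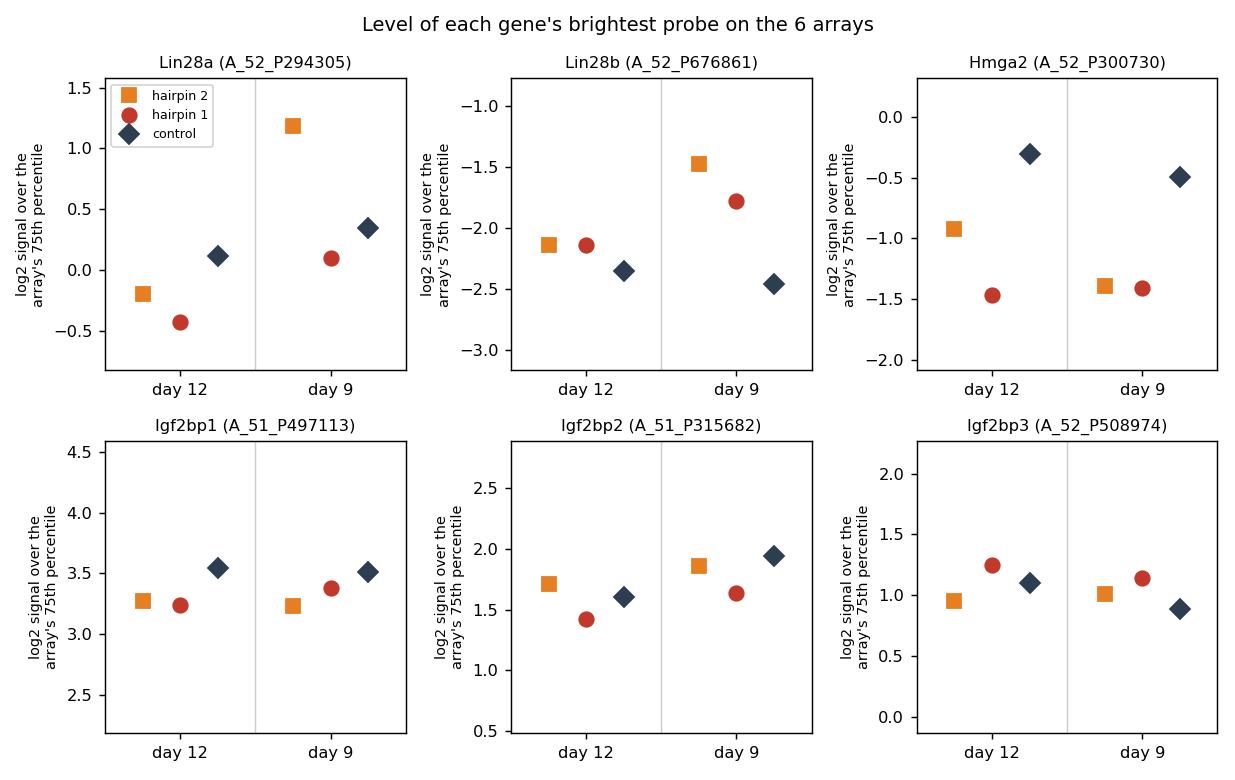
Level of the brightest probe of each of the 6 genes on the 6 arrays, as the log2 signal over the array's 75th percentile, with 1 point per array. Every panel spans the same range of log2 values around its own middle. Hmga2 is lower on the 4 knockdown arrays than on both control arrays, Lin28b is higher on all 4, and Lin28a is highest on the hairpin 2 array of day 9.

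Lin28a encodes the form of LIN28 that marks undifferentiated embryonic stem cells. Its probe, A_52_P294305, read -0.20 for hairpin 2 and -0.43 for hairpin 1 at day 12, against 0.12 in the control. At day 9 it read 1.18 for hairpin 2 and 0.10 for hairpin 1, against 0.35 in the control. The hairpin 2 array of day 9 was the highest of the 6 and the other 3 knockdown arrays were each below their control, so the groups overlapped. As signals, that array had 1690, while the other 5 lay between 508 and 800. The knockdown difference of Lin28a was -0.07 (SE 0.34, 95% interval -0.90 to 0.76, adjusted p = 0.970). It was -0.35 without the hairpin 2 array of day 9 and 0.29 without the day 12 control, which is the value of day 9 alone. It was also positive, at 0.11 and 0.03, without the hairpin 1 array of day 9 or of day 12.

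Lin28b encodes the second LIN28 protein, which represses let-7 by way of the same loop.

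On the brightest Lin28b probe, A_52_P676861, the levels at day 12 were -2.14 for hairpin 2 and -2.14 for hairpin 1, against -2.35 in the control. At day 9 they were -1.48 for hairpin 2 and -1.78 for hairpin 1, against -2.46 in the control. All 4 knockdown arrays were above both control arrays, with the wider gap at day 9. The group means were -1.89 ± 0.32 in knockdown cells (SD, n = 4) and -2.41 ± 0.08 in control cells (SD, n = 2). The knockdown difference was 0.52 (SE 0.20, 1.44-fold, unadjusted p = 0.039, adjusted p = 0.482) and did not pass. It was 0.21 without the day 9 control and 0.84 without the day 12 control, so each control array moved it by over 1.5 times. Without the control of a day the difference rests on the other day alone. These values are therefore also the differences of day 12 and day 9, given again below.

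The other Lin28b probes were far dimmer. A_52_P357516 had signals of 24.3 for hairpin 2 and 39.7 for hairpin 1 at day 12, against 14.6 in the control, and 7.96 for hairpin 2 and 35.5 for hairpin 1 at day 9, against 15.9 in the control. On this probe the hairpin 2 array of day 9 was the lowest of all 6, so the groups overlapped, and the difference was 0.55 (SE 0.67, adjusted p = 0.830). A_52_P532355 had signals of 10.8 for hairpin 2 and 9.48 for hairpin 1 at day 12, against 6.26 in the control, and 9.38 and 15.8 at day 9, against 7.48. It was not well above background on either control array and entered the fit through the knockdown arrays alone, so its direction was fixed by the filter. As a description, its measured difference was 0.66, or 1.58-fold (95% interval on the log2 scale -0.027 to 1.355, limma adjusted p = 0.524). The interval includes no change, and nothing rests on this probe. A lower bound on the fold would replace control signals under the lowest signal well above background of their array. Both control signals of this probe were higher than that, so the bound equals the measured fold and adds nothing to it. The 3 probes did not follow one another closely over the 6 arrays, with Pearson's r of -0.28, 0.44 and 0.61 between pairs, given as a description of arrays that share slides.

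Hmga2 encodes an architectural chromatin protein of embryonic cells and is among the best known let-7 targets. Its promoter in RefSeq, 250 bases before and 50 after the gene start, is shown because Hmga2 had the most negative knockdown differences of the set, and capitals mark a GC box (GGGCGG, searched on both strands and here on the opposite one), which 35.7% of 32851 promoters in the table held.
Hmga2 promoter, chr10:120476420-120476719, minus strand, GRCm38.p6: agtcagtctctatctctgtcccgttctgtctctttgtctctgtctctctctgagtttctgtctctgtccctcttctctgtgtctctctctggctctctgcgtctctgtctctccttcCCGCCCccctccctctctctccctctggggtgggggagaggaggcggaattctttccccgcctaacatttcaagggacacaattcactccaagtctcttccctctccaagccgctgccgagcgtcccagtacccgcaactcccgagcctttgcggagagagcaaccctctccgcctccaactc
No CCAAT box (CCAAT, in 37.4% of all promoters), E-box (CACGTG, in 7.15%) or TATA box (TATAAA, in 13.6%) was found in this window on either strand, and the promoter was 57.7% G and C, against a median of 52.7% over the table.

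On the brightest Hmga2 probe, A_52_P300730, the levels at day 12 were -0.93 for hairpin 2 and -1.47 for hairpin 1, against -0.30 in the control. At day 9 they were -1.39 for hairpin 2 and -1.41 for hairpin 1, against -0.49 in the control. The 4 knockdown arrays all lay below both controls, and the hairpin 2 array of day 12 was the nearest to them. As a share of the control signal of the same day, after scaling to the 75th percentile, the knockdown arrays held 65.0% for hairpin 2 and 44.7% for hairpin 1 at day 12, and 53.6% and 53.0% at day 9. The means were -1.30 ± 0.25 in knockdown cells (SD, n = 4) and -0.40 ± 0.13 in control cells (SD, n = 2).

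The dimmer Hmga2 probes gave the same order of the groups. A_51_P288315 had signals of 51.6 for hairpin 2 and 39 for hairpin 1 at day 12, against 77.9 in the control, and 34.0 and 35.5 at day 9, against 69.5 in the control. A_52_P373357 had 16.3 for hairpin 2 and 16.2 for hairpin 1 at day 12, against 31.3 in the control, and 19.5 and 13.0 at day 9, against 26.5 in the control. On both probes every knockdown array was below both control arrays. The 3 probes followed one another over the 6 arrays, with Pearson's r of 0.96, 0.93 and 0.86 between pairs, as a description.

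The knockdown differences of Hmga2 were -0.90 (SE 0.19) on A_52_P300730, -0.93 (SE 0.21) on A_51_P288315 and -0.87 (SE 0.17) on A_52_P373357. Their unadjusted p were 0.0031, 0.0047 and 0.0020, and their limma adjusted p 0.312, 0.327 and 0.278, so none passed. By p they ranked 297th, 437th and 219th of 30190 probes. With a normexp background correction, which moved the median of all probes to 0.12, the differences were -0.72, -0.24 and 0.03 in the same order. The correction adds an offset of 50 to signals that on the third probe were between 13.0 and 31.3.

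A pseudogene, Hmga2-ps1 on chromosome 1, has its own probe, A_51_P449580, and transcripts of near-identical copies may not be told apart on an array. On that probe every knockdown array was below both control arrays, as on 11.9% of all probes. The signals were 13.8 for hairpin 2 and 13.0 for hairpin 1 at day 12, against 26.6 in the control, and 16.4 and 6.39 at day 9, against 17.8 in the control. The probe was well above background on 5 of the 6 arrays, 3 of them knockdown arrays. Its difference was -0.93 (SE 0.33, limma adjusted p = 0.466). Whether either transcript reaches the other's probe was not tested.

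**Figure D2:**
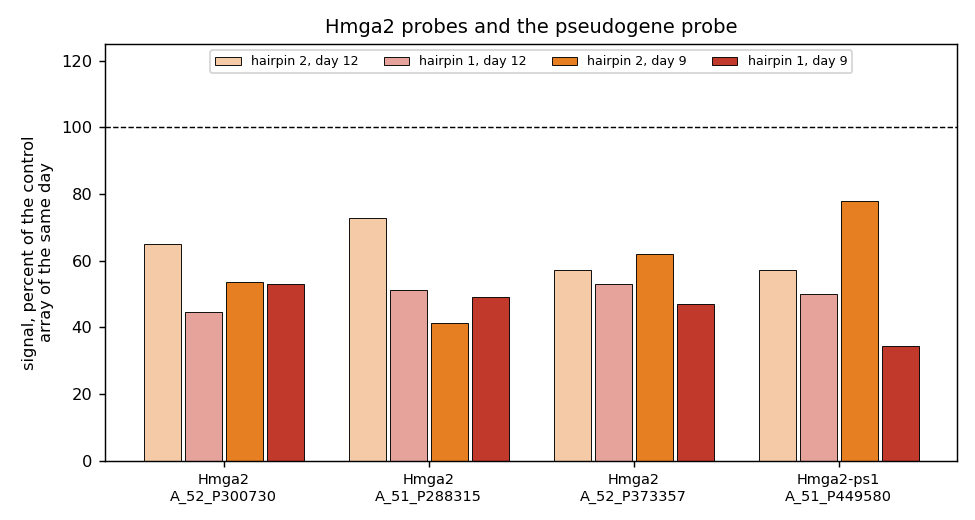
Signal of the 3 Hmga2 probes and the Hmga2-ps1 probe on each knockdown array, after scaling to the array's 75th percentile, as a percent of the control array of the same day (dashed line, 100%). Every bar lies below the control, and on the brightest Hmga2 probe the bars run between 44.7% and 65.0%, with 1 array per bar and no error bar.

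In these bulk samples, fewer cells of a type and less RNA per cell cannot be told apart. Marker lists moved beside the Hmga2 and Lin28b values. Of 13 endoderm markers kept, 11 were higher and 2 lower in knockdown cells, with a median difference of 0.83 and a mean level of -2.74 to -2.49 on the knockdown arrays, against -3.58 and -3.55 on the control arrays. Of 12 fibroblast and mesenchyme markers, 11 were higher, with a median of 0.77 and mean levels of -2.20 to -1.26, against -2.78 and -2.60. On every knockdown array the mean of both lists was above that of either control array. The fibroblast markers Lum, Dcn and Lox were not well above background on all 6 arrays. Pluripotency markers were higher for 10 of 11, with a median of 0.24 and mean levels of 3.97 to 4.33, against 3.72 and 3.83. Neural markers were higher for 7 of 9, with a median of 0.36 and mean levels of -1.30 to -1.10, against -1.67 and -1.77. These means, too, did not overlap between the groups. Germ cell markers other than Dazl were lower for 9 of 12, with a median of -0.19 and mean levels of 1.76 to 1.98, against 2.07 and 1.99, a list taken without Dazl after the data were seen. With Dazl they were lower for 10 of 13, with mean levels of 1.41 to 1.69, against 2.11 and 1.94. Trophectoderm markers were higher for 6 of 8, with a median of 0.16, and blood markers for 2 of 4, with a median of 0.10. The trophectoderm mean at day 12 was -0.34 for hairpin 2 and 0.33 for hairpin 1, against -0.12 in the control. At day 9 it was -0.65 and 0.40, against -0.13. Between the hairpins, all 8 trophectoderm markers were lower with hairpin 2, while of the fibroblast markers 11 were higher and 1 lower. None of the markers passed the threshold on its brightest probe, and their part in the member values was not tested.

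The IGF2BP proteins bind mRNAs in the cytoplasm and affect their stability, transport and translation. Igf2bp1 encodes the zipcode-binding protein first known for its binding of beta-actin mRNA. Its brightest probe, A_51_P497113, read 3.28 for hairpin 2 and 3.24 for hairpin 1 at day 12, against 3.55 in the control, and 3.23 and 3.38 at day 9, against 3.51 in the control. All 4 knockdown arrays were below both controls. The means were 3.28 ± 0.07 in knockdown cells (SD, n = 4) and 3.53 ± 0.03 in control cells (SD, n = 2), with a difference of -0.25 (SE 0.14, adjusted p = 0.610).

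On A_52_P620742 of Igf2bp1 the levels were -1.17 for hairpin 2 and -1.21 for hairpin 1 at day 12, against -0.74 in the control, and -1.09 and -0.87 at day 9, against -0.63 in the control. The groups did not overlap on this probe either, and the difference was -0.40 (SE 0.14, unadjusted p = 0.033, adjusted p = 0.474). On A_52_P295950 the difference was -0.27 (SE 0.22, adjusted p = 0.732), with 1.87 for hairpin 2 at day 9 as the lowest of the 6 values. The other knockdown arrays differed from the control of their day by -0.10 for hairpin 2 and -0.12 for hairpin 1 at day 12, and -0.10 for hairpin 1 at day 9. All 3 Igf2bp1 probes were lower in all 4 pairs, but the groups overlapped on A_52_P295950. The 4 pairs share 2 control arrays. To be lower in all of them asks less than to lie below both controls, as 11.9% of all probes did. At least that share of all probes was therefore lower in all 4 pairs.

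Igf2bp2 encodes the family member that stays expressed in many adult tissues. Its probe, A_51_P315682, read 1.71 for hairpin 2 and 1.43 for hairpin 1 at day 12, against 1.61 in the control, and 1.86 and 1.64 at day 9, against 1.94 in the control. Of the 4 pairs 3 were lower and the groups overlapped. The difference was -0.12 (SE 0.16, 95% interval -0.52 to 0.28, adjusted p = 0.859).

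Igf2bp3 encodes an oncofetal member of the family. Its brightest probe, A_52_P508974, read 0.95 for hairpin 2 and 1.25 for hairpin 1 at day 12, against 1.10 in the control, and 1.01 and 1.14 at day 9, against 0.88 in the control. A_51_P302336 read 0.99 for hairpin 2 and 1.18 for hairpin 1 at day 12, against 0.80 in the control, and 1.31 and 0.98 at day 9, against 0.86 in the control. A_52_P271232 read -1.13 for hairpin 2 and -0.97 for hairpin 1 at day 12, against -0.99 in the control, and -0.52 and -0.98 at day 9, against -1.10 in the control. Among these probes, A_51_P302336 alone had all 4 knockdown arrays above both controls. The differences were 0.10 (SE 0.16) on A_52_P508974, 0.28 (SE 0.16) on A_51_P302336 and 0.14 (SE 0.20) on A_52_P271232, with adjusted p of 0.887, 0.625 and 0.858.

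Between paralogues the fitted values had opposite signs for Igf2bp1 and Igf2bp3, but the difference between the genes was not tested. Over the 14 probes, 5 had every knockdown array below both control arrays, which were probes of Hmga2 and Igf2bp1, where 11.9% of all probes did. Every knockdown array was above both controls on 2 probes, Lin28b A_52_P676861 and Igf2bp3 A_51_P302336, where 8.65% of all probes did. A_52_P532355 also had this order but is not counted, since it passed the filter through the knockdown arrays alone. Probes of 1 gene share their target, so each count rests on 2 genes.

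**Figure D3:**
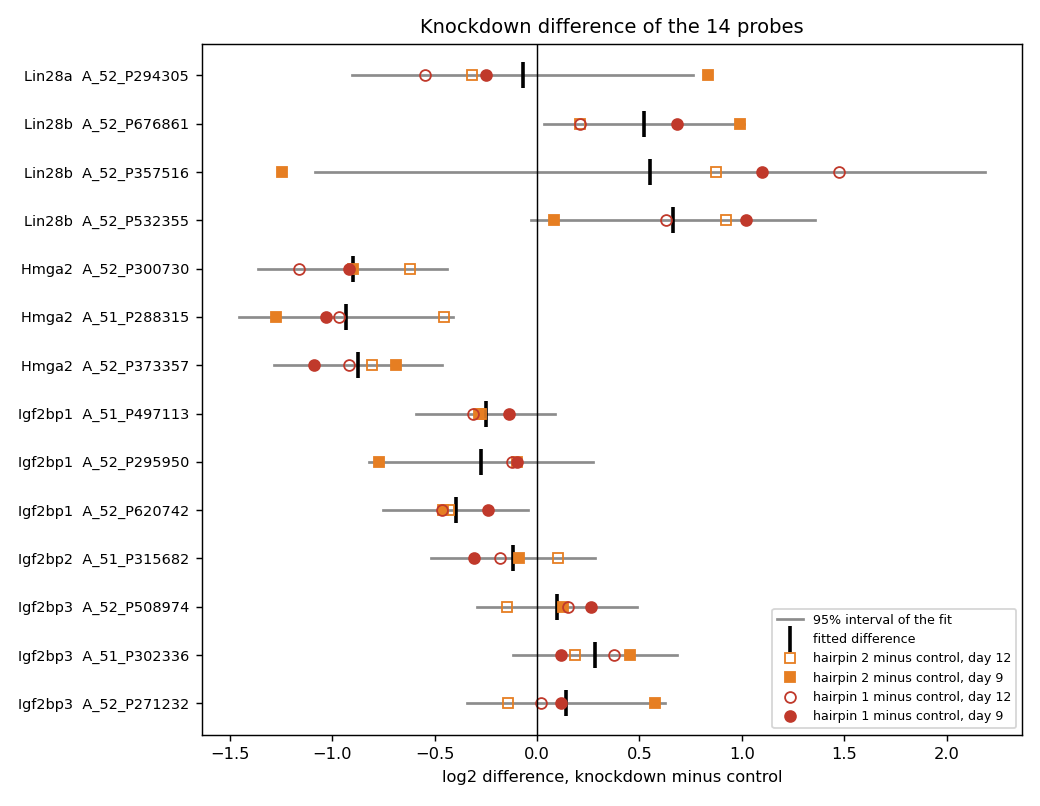
Knockdown difference of the 14 probes on the log2 scale, as the fitted value (black bar) with its 95% interval (grey line) over 4 knockdown and 2 control arrays, and each knockdown array minus the control array of its day (squares for hairpin 2, circles for hairpin 1, open for day 12, filled for day 9). The 3 Hmga2 probes lie between -0.93 and -0.87 and the widest interval is that of Lin28b A_52_P357516.

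The knockdown effect was also taken at each day in a fit of 4 groups, where the lone control of a day is assumed to vary like the knockdown pairs. No probe of the array passed at either day, so 0% of all probes were called. At an unadjusted p under 0.05 there were 2 of the 14 at day 12 and 4 of the 14 at day 9, against 4.6% and 3.8% of all probes. Hmga2 A_52_P300730 differed by -0.89 at day 12 and -0.91 at day 9 (SE 0.31 each), and the difference between the days was 0.02 (SE 0.44, 95% interval -1.09 to 1.12, adjusted p = 0.9999). Lin28b A_52_P676861 differed by 0.21 at day 12 and 0.84 at day 9 (SE 0.26 each), and the difference between the days was -0.63 (SE 0.36, unadjusted p = 0.143, adjusted p = 0.9999). The other Lin28b probes gave a difference between the days of the opposite sign. A_52_P357516 differed by 1.17 at day 12 and -0.07 at day 9 (SE 0.94 each), a difference of 1.25 (SE 1.33). A_52_P532355 differed by 0.78 at day 12 and 0.55 at day 9 (SE 0.44 each), a difference of 0.23 (SE 0.62). For Lin28a the difference between the days was -0.73 (SE 0.68). None of the 14 probes reached an unadjusted p under 0.05 for the difference between the days, where 1.51% of all probes did and 0% were called.

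Day 12 was set against day 9 in the same fit as the knockdown. None of the 14 probes passed, and none had an unadjusted p under 0.05, where 0.0563% of all probes were called and 10.7% passed the unadjusted level. Lin28a stood at -0.17 ± 0.27 at day 12 and 0.54 ± 0.57 at day 9 (SD, n = 3 each). The control array of day 12 was above the hairpin 1 array of day 9, so the days overlapped. The day difference of Lin28a was -0.71 (SE 0.32, unadjusted p = 0.068, adjusted p = 0.508). It was -0.34 without the hairpin 2 array of day 9 and -0.96 without either control array, the ends of its range with 1 array left out. On the brightest probes it was -0.31 (SE 0.19) for Lin28b, 0.20 (SE 0.18) for Hmga2, -0.02 (SE 0.13) for Igf2bp1, -0.23 (SE 0.15) for Igf2bp2 and 0.09 (SE 0.15) for Igf2bp3.

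The hairpins were compared with each other in a fit with vector and day. None of the 14 probes passed and 1 had an unadjusted p under 0.05, where 0.00331% and 10.7% of all probes did. That probe was Lin28b A_52_P357516, with -4.71 for hairpin 2 and -4.11 for hairpin 1 at day 12, and -6.55 and -4.21 at day 9. Its difference was -1.47 (SE 0.50, adjusted p = 0.407), and the brightest Lin28b probe, A_52_P676861, had 0.15 (SE 0.23, adjusted p = 0.795). The dim probe gave 0.16 with the normexp correction, which moved the median of all probes to 0.21. It passed without the day 9 control, the day 12 control or the hairpin 2 array of day 12. Those fits called far more probes than the fit with all arrays. Leaving out either control is the same fit, since the control that remains has a term of its own. Each of these fits also left 1 array for a vector, so nothing rests on these passes. Lin28a was higher with hairpin 2 than hairpin 1 on both days, by 0.66 (SE 0.30, adjusted p = 0.503), where 30.5% of all probes were higher with hairpin 2 on both days. That difference was 0.16 without the hairpin 2 array of day 9 and 1.16 without the hairpin 2 array of day 12.

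With 1 array per condition, no spread within a condition sets apart neighbours in the order of the levels. For Hmga2 A_52_P300730 the order was the day 12 control, the day 9 control, hairpin 2 at day 12, hairpin 2 at day 9, hairpin 1 at day 9 and hairpin 1 at day 12. For Lin28a it was hairpin 2 at day 9, the day 9 control, the day 12 control, hairpin 1 at day 9, hairpin 2 at day 12 and hairpin 1 at day 12. These were the genes whose brightest probe spanned over 1 on the log2 scale, 1.16 for Hmga2 and 1.61 for Lin28a.

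For these genes the 3 genes of most similar pattern were sought among 15027 genes well above background on all 6 arrays, by the root mean square difference of the centred log2 values over the 6 arrays. Nearest to Hmga2 were Timp3, an inhibitor of matrix metalloproteinases, at 0.098, Fam151b at 0.107 and Arfgef3 at 0.112. Nearest to Lin28a were Btaf1, a factor that removes TATA-binding protein from DNA, at 0.086, Actb, beta-actin, at 0.103, and Zfp275 at 0.114. Over 6 arrays and so many genes some close patterns are found for any gene, and likeness here is only a description.

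The let-7 pathway beyond the members was read from lists, each gene by its brightest probe. Over all 20220 genes the median knockdown difference was -0.0014, the quartiles were -0.18 and 0.16, and 49.8% of genes had a difference above 0. At an unadjusted p under 0.05 there were 4.85% higher and 4.56% lower. Processing and silencing machinery, all 21 of 21 genes kept, was higher for 6 and lower for 15 genes, with a median of -0.11 and no gene called, nor any at the unadjusted level. The values of largest size were those of Dicer1, which cuts let-7 precursors, at -0.64 (SE 0.28, adjusted p = 0.537), Tnrc6b, a silencing cofactor, at -0.34, Dgcr8, of the nuclear processing complex, at -0.29, and Xpo5, which exports precursors, at -0.25. Dicer1 read 0.10 for hairpin 2 and 0.16 for hairpin 1 at day 12, against 0.65 in the control, and -0.34 and 0.64 at day 9, against 0.90 in the control. Every knockdown array was below both controls, by little for hairpin 1 at day 9, as on 11.9% of all probes. Tut4, the uridylyl transferase that LIN28A recruits to let-7 precursors, differed by -0.11 (SE 0.22), and Dis3l2, the nuclease that degrades the uridylated precursor, by -0.14 (SE 0.21). Both were named here for their role, after their values were seen.

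Of 29 reported or predicted let-7 targets other than the members, 28 were kept, 14 higher and 14 lower in knockdown cells, with a median of -0.04. None was called, and at the unadjusted level 1 was higher and 1 lower. The values of largest size were E2f2, a cell cycle transcription factor, at 0.81 (SE 0.33, adjusted p = 0.498), Dicer1 as above, Arid3a at -0.56 and Mycl, of the MYC family, at -0.46. E2f2 read 1.14 for hairpin 2 and 1.55 for hairpin 1 at day 12, against 0.43 in the control, and 0.28 and 1.38 at day 9, against 0.12 in the control. It was higher in all 4 pairs, which share 2 control arrays, while the groups overlapped through the hairpin 2 array of day 9. To be higher in all pairs asks less than to lie above both controls, as 8.65% of all probes did. For day 12 against day 9 the targets were higher for 6 and lower for 22, with a median of -0.16 beside 0.0026 over all genes, of which 50.5% were higher, and none was called. The largest day differences were those of Plag1 at -0.89, Prdm1 at -0.54, Cdk6, a kinase of the cell cycle, at -0.54 (SE 0.13) and Ccnd1, its cyclin, at -0.46 (SE 0.14). The machinery list had a day median of 0.06, with Ago1 at -0.50, Prkra at -0.30, Khsrp at -0.22 and Hnrnpa1 at 0.19.

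In the insulin-like growth factor pathway, 19 of 20 genes were kept, 8 higher and 11 lower in knockdown cells, with a median of -0.05 and none called. Igfbp1, a secreted binding protein of these growth factors made in liver, had the difference of largest size, 1.85 (SE 0.30, unadjusted p = 0.00084, adjusted p = 0.239). It read -3.45 for hairpin 2 and -3.89 for hairpin 1 at day 12, against -5.99 in the control, and -4.26 and -4.87 at day 9, against -5.93 in the control. Every knockdown array was above both controls, as on 8.65% of all probes. Whether Igfbp1 goes with the endoderm markers was not tested. Igf1 had -0.48 and Igf1r, the receptor, -0.44. By day the largest were Igfbp4 at -0.84, Igf1 at -0.83, Igfbp5 at -0.79 and Igfbp6 at 0.71.

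Of 9 mRNAs reported as bound by IGF2BP proteins, 4 were higher and 5 lower in knockdown cells, with a median of -0.06 and none called. H19, an imprinted non-coding RNA, had -1.22 (SE 0.41, adjusted p = 0.453), with 0.07 for hairpin 2 and -0.15 for hairpin 1 at day 12, against 1.98 in the control, and 0.56 and -0.24 at day 9, against 0.57 in the control. The gap to the control was wide at day 12 on both arrays and at day 9 on the hairpin 1 array. Igf2, the fetal growth factor whose mRNA gave the family its name, had 0.35 (SE 0.20, adjusted p = 0.624), higher in 3 of 4 pairs. Mapk4 had -0.54 and Cd44 had 0.31. By day Actb had -0.57, Mapk4 0.52 and Igf2 -0.39.

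Of 10 high mobility group genes other than Hmga2, 3 were higher and 7 lower in knockdown cells, with a median of -0.16 and none called. Hmga1, the nearest relative of Hmga2, differed by 0.06 (SE 0.16), and the gap between Hmga2 and Hmga1 was not tested. The values of largest size were Hmgb2 at -0.35, Hmgb3 at -0.23, Hmg20b at -0.23 and Hmgn3 at -0.20. By day they were Hmgn1 at 0.19, Hmgn3 at 0.18, Hmgn2 at -0.18 and Hmga1 at -0.16.

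**Figure D4:**
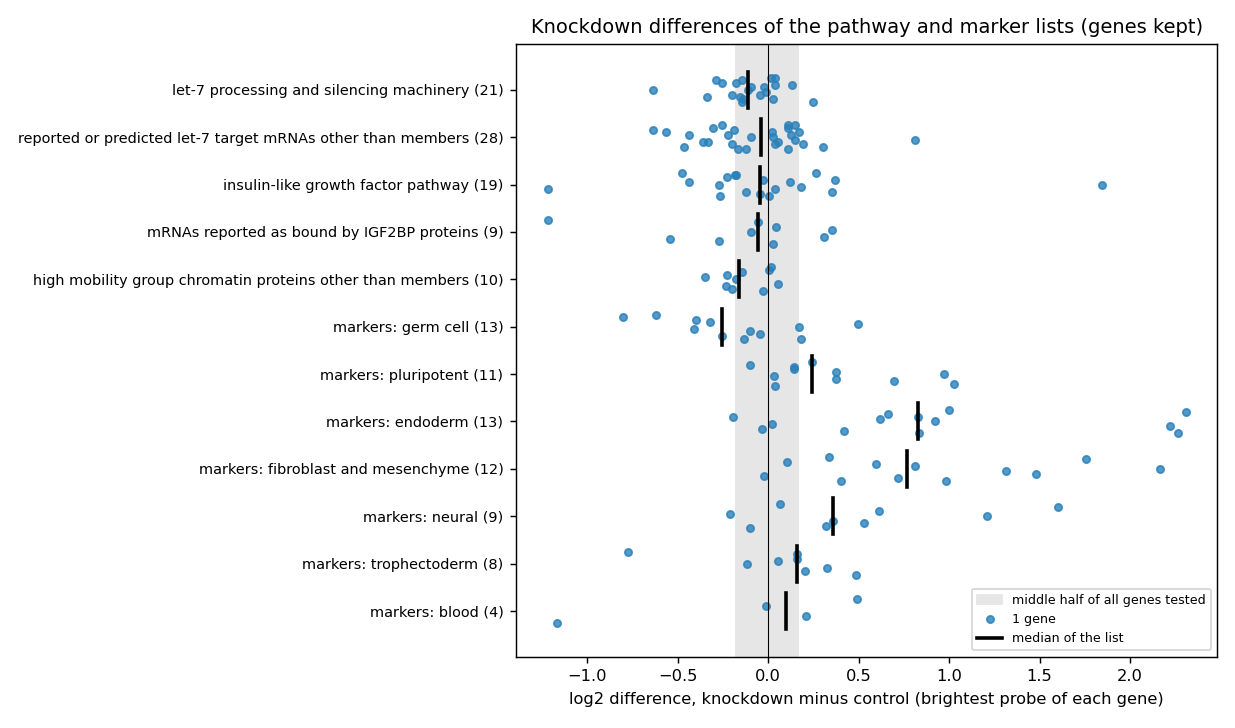
Knockdown difference on the log2 scale of each gene of the pathway and marker lists, by its brightest probe, with the list's median as a black bar. The grey band runs between the lower and upper quartile of all genes, -0.18 to 0.16, so many genes lie outside it. The number of genes kept stands beside each name, and Dazl, which counts among the germ cell markers, lies off the scale at -4.30 and is not drawn. The medians of the pathway lists lie between -0.16 and -0.04, and those of the endoderm and fibroblast lists at 0.83 and 0.77.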

How the data were processed

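RNA of 6 samples, labelled with Cy3, was read on 1 Agilent array each, with 43379 non-control spots for 41174 probes. Per the file headers, the deposited scanner files give intensity per spot from Agilent Feature Extraction, after detrending and background subtraction, with surrogate values in dim spots, and arrays were not scaled to each other. The deposited table gives a ratio: per the file headers, signals less background were scaled to the median of the array. Its 41529 entries each matched a spot within 1e-06. A deposited quality score, whose origin is not given in the sources used here, served for that match alone. The authors' genome build is likewise not given in the sources used here; GRCm38.p6 tables served for names, chromosomes and sequences.

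Intensities were put on the log2 scale relative to the 75th percentile of the array. Outlier spots were dropped and spots of a probe averaged. A probe had to be well above background on 2 or more of 6 arrays (30214 probes), and 30190 had a value on all arrays. limma 3.58.1 in R 4.3.3 was run on these, two-sided, adjusted by Benjamini-Hochberg over 30190 probes, with knockdown and day, with 4 groups, or with vector and day. In lists the brightest probe stood for a gene. With so few arrays, precision is limited throughout.

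On simulated data for knockdown against control with 30190 probes, 15.2% of probes changed by 1 on the log2 scale were called, 71.6% of those changed by 2 and 94% of those changed by 4, with 5 false calls. Pairing by vector was checked from deviations of the arrays around the mean of their day, correlated across probes. Arrays of 1 vector gave r of 0.24 to 0.51, others -0.31 to -0.04, so the vector was also fitted as a replicate block; this pairing is read from the data and shared with place on the slide. Alternatives were normexp background correction with an offset of 50, quantile normalization, the authors' deposited values, no filter or a stricter one, 1 probe or the mean of probes per gene, a trended robust prior, and leaving out each array.

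The members, gene lists and tests were chosen with earlier results of these data known. Named were Dazl, every probe of every member, the 4 genes of largest knockdown and of largest day difference in each pathway list, and the 3 genes nearest in pattern to a member spanning over 1 on the log2 scale. Left out were Trim71 and the list genes with no probe kept, and 1 gene that the rule would name is not reported here.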

Additional observations from a re-analysis of the deposited data

Results flagged for a closer look

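On the brightest Hmga2 probe, A_52_P300730, the hairpin 2 array of day 12 stood apart from the other 3 knockdown arrays. It read -0.93, against -1.39, -1.41 and -1.47. Its gap to the nearest was 0.8645 of the range of the 4 arrays, above Dixon's critical value for 4 samples. It was the only flag among 14 probes examined in this way, where chance flags about 1 in 20 groups. Such a count is not unusual by chance. Dixon's test takes the 4 arrays as repeats of 1 condition, but they were of 2 hairpins and 2 days. The flag is therefore only a description. The same array was also the highest of the 4 on A_51_P288315 (gap 0.614 of the range) and not on A_52_P373357. Without it the knockdown difference of A_52_P300730 was -1.02 (adjusted p = 0.598).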

How the results depend on the processing

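Each probe was tried under the alternatives for the knockdown contrast, and the brightest probe of each gene, with Lin28b A_52_P357516 for the hairpins, in the other contrasts. With 1 array left out, 231 values kept their direction and their side of the threshold, 12 turned and 3 came to pass. Those that came to pass were all for the hairpins on Lin28b A_52_P357516, where leaving out either control array is the same fit. Under the other alternatives 368 were kept and 11 turned. The filters, the brightest probe, the prior and the replicate block leave the difference of a probe as it is. Under these its direction was fixed, and only its side of the threshold could change. None of the knockdown differences of the 14 probes passed under any alternative. The range with 1 array left out was -1.02 to -0.79 for Hmga2 A_52_P300730, -0.43 to 0.29 for Lin28a, -0.072 to 1.17 for Lin28b A_52_P357516 and -0.061 to 0.35 for Igf2bp3 A_52_P271232. For the day it was -0.054 to 0.031 for Igf2bp1 A_51_P497113. At day 12 alone it was -0.18 to 0.10 for Igf2bp2 and -0.15 to 0.15 for Igf2bp3 A_52_P508974, while at day 9 alone Lin28a ran from -0.25 to 0.83. For the difference between the days it was -0.25 to 0.29 for Hmga2 A_52_P300730. For the hairpins it was -0.12 to 0.42 for Lin28b A_52_P676861, -0.15 to 0.035 for Igf2bp1 A_51_P497113 and -2.44 to -0.51 for Lin28b A_52_P357516, which alone passed.

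Normexp moved the median of all probes to 0.12 for the knockdown, -0.14 for the day, 0.19 at day 9, -0.15 for the difference between the days and 0.21 for the hairpins. It turned the sign of Hmga2 A_52_P373357 for the knockdown (0.035), Igf2bp1 A_51_P497113 for the day (0.038), Igf2bp3 A_52_P508974 at day 12 (-0.010), Hmga2 A_52_P300730 for the difference between the days (-0.059) and Lin28b A_52_P357516 for the hairpins (0.16). Quantile normalization gave -0.00049 for Hmga2 A_52_P300730 for the difference between the days. The mean of a gene's probes turned Igf2bp3 for the day (-0.044) and the hairpins (0.00049), Lin28b for the difference between the days (0.28) and the hairpins (-0.55), and Igf2bp1 for the difference between the days (0.047), as it mixes probes that disagree. The cause of the others was not tested.

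For the knockdown, 2 probes were called, against 1 with the authors' values, 0 with the brightest probe, 1 with the mean of probes and 0 to 1 with an array left out. For the day, 17 were called, against 1 with normexp, 11 with quantile normalization, 6 with the authors' values, 0 with no filter, 30 with the brightest probe, 29 with the mean of probes, 4 with the trended robust prior and 0 to 3 with an array left out. For the hairpins, 1 was called, against 91 with normexp, 2 with the authors' values, 0 with no filter, 3 with the stricter filter, 14 with the brightest probe, 2 with the mean of probes, 30 with the trended robust prior and 0 to 1560 with an array left out.

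With the vector as a replicate block, 4 probes were called for the knockdown and 245 for the day, 208 at day 12, 203 at day 9 and 22 for the difference between the days. The block changed no call of a member, and the limma adjusted p of the Hmga2 probes was 0.173, 0.218 and 0.150 for the knockdown. Each vector was wholly knockdown or wholly control, and the control arrays shared 1 vector. Spread between control vectors could therefore not be measured. The knockdown counts and adjusted p with the block may leave out spread between vectors, and they are not read as stronger evidence than the main fit. The simulated data limit what 6 arrays can show, since 15.2% of probes changed by 1 on the log2 scale were called. Their noise was drawn independently for each array, unlike that of arrays of 1 vector. The chance of a call for the Hmga2 probes themselves was not tested.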
